A study of Danio rerio with 3 samples.

Results

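The genes described here are 33 cell cycle and DNA replication genes of the adult zebrafish liver, read in single-cell RNA sequencing of livers with and without a β-catenin-driven hepatocellular carcinoma (HCC). They were chosen by gene name and not by their levels, out of 15633 genes listed in 1 or more of 3 single-cell libraries. By role, 10 are S-phase genes (pcna, mcm2 to mcm7, rrm1, rrm2 and tyms), 16 are genes of G2 and mitosis, called mitotic genes below (mki67, top2a, cdk1, ccna2, ccnb1, ccnb2, ccnb3, aurka, aurkb, birc5a, plk1, bub1, tpx2, ube2c, cdc20 and nusap1), 6 are chromatin and tubulin genes (stmn1a, hmgb2a, hmgb2b, hmgn2, tubb2b and tuba8l4) and 1 is the G1 cyclin ccnd1.

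Each library came from 1 liver of a male fish aged 6 months. The HepABC HCC fish was of the line labelled Tg(fabp10a-pt-beta-catenin), in which the hepatocyte promoter fabp10a drives an activated β-catenin directly, with no Cre step, and it got no tamoxifen. The methods add that it carried a fluorescent reporter of β-catenin activity. The CreLox HCC fish, Tg(fabp10a-CreERT2;fabp10a-flox-beta-catenin), carried a floxed activated β-catenin and a tamoxifen-inducible Cre, both for hepatocytes. It was given 4-hydroxytamoxifen (TAM, 10 µM) on days 3 to 6 after fertilization. The paper reports, from a reporter line, that this Cre also acted in part of the hepatocytes without TAM. The no HCC fish, Tg(fabp10a-flox-beta-catenin), had the same TAM course with the floxed transgene but no Cre. The no HCC fish therefore shares TAM and the floxed transgene with the CreLox fish and neither with the HepABC fish, so transgene, TAM and fish cannot be told apart in these libraries. With 1 library per group no test between groups was possible, and each value below carries an exact 95% interval that covers counting error only.

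S-phase genes encode the machinery that copies DNA. In other vertebrates and in yeast, the Mcm2 to Mcm7 proteins form the helicase that opens the double helix, Pcna is the sliding clamp that holds polymerases on the template, and ribonucleotide reductase (Rrm1 and Rrm2) and thymidylate synthase (Tyms) supply the DNA building blocks. The mitotic genes encode the kinases, cyclins and ubiquitin ligase parts that take a cell into and out of division. Hepatocytes of an adult liver are mostly at rest and can re-enter the cycle after injury or in a tumor.

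The libraries held 2866 HepABC, 2112 CreLox and 1077 no HCC cells, with 47680774, 9066031 and 5404507 UMIs (unique molecular identifiers, 1 per captured RNA molecule). Because depth per cell differed so much, cells were read by depth, a split chosen with the data known. Deep cells, with 10000 UMIs or more, numbered 1938 in HepABC, 186 in CreLox and 213 in no HCC, and the 12 hepatocyte markers took a median 17.9%, 18.7% and 27.6% of their UMIs. Of these deep cells 1 HepABC, 7 CreLox and 3 no HCC cells had under 5% of hepatocyte marker UMIs, so the deep cells carried the marker profile of hepatocytes. Shallow cells, with under 5000 UMIs, numbered 537, 1792 and 793 and included the leukocytes and endothelial cells. HepABC and CreLox shared 8 cell barcodes, CreLox and no HCC 2, and HepABC and no HCC 1. Levels are given as CPM, the UMIs of a gene scaled to 1000000 UMIs of the cells named. A molecule gives 1 UMI in this 3′ assay whatever its length, so levels are not divided by gene length.

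Of the 33 genes, 30 were listed in the HepABC library, 22 in the CreLox library and 20 in the no HCC library, with 19 in all 3 and ccnb2, aurka and bub1 in none. The difference lay among the mitotic genes. All 10 S-phase genes, all 6 chromatin and tubulin genes and ccnd1 were listed in every library, whereas 13 of 16 mitotic genes were listed in HepABC, 5 in CreLox and 3 in no HCC. The mitotic genes listed in every library were mki67, a marker of cycling cells, and ube2c, the ubiquitin-conjugating enzyme of the anaphase-promoting complex. In HepABC alone, 7 mitotic genes were listed (top2a, cdk1, ccna2, ccnb1, ccnb3, plk1 and tpx2), but with 34 UMIs between them in 13 of 2866 cells. The HepABC library was also the deepest and listed 14713 genes in all, against 12804 in CreLox and 12386 in no HCC. The part of depth in the longer mitotic list was not tested.

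In deep cells the S-phase genes were highest in the CreLox library and lowest in the HepABC library. Their summed level was 4.96 CPM in HepABC (4.32 to 5.67, 216 UMIs), 29.4 CPM in CreLox (24.9 to 34.7, 145 UMIs) and 10.2 CPM in no HCC (7.14 to 14.1, 36 UMIs). CreLox stood 2.89 times above no HCC (1.99 to 4.29), and HepABC was at 0.487 of the no HCC level (0.341 to 0.713) and 0.168 of the CreLox level (0.136 to 0.209). These intervals exclude 1 for counting error alone and leave out the spread between cells. Without the top cell of each library the HepABC to no HCC ratio was 0.767. The CreLox to no HCC ratio was 2.04 with TMM scaling (a trimmed mean over genes instead of the total). It was 2.40 on a total without mitochondrial genes and the 20 genes of the highest counts. On cells thinned to 10000 UMIs it was 4.14. A single liver per group also leaves the spread between fish unknown.

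The clamp gene pcna was the most abundant S-phase gene in each library and gave 49.5%, 43.4% and 44.4% of the S-phase UMIs of HepABC, CreLox and no HCC deep cells. It had 2.46 CPM in HepABC (107 UMIs), 12.8 CPM in CreLox (63 UMIs) and 4.53 CPM in no HCC (16 UMIs). The ratios of pcna were 2.82 (1.61 to 5.24) for CreLox to no HCC and 0.542 (0.319 to 0.983) for HepABC to no HCC. The 6 helicase genes mcm2 to mcm7 together had 1.63 CPM in HepABC (71 UMIs), 15.2 CPM in CreLox (75 UMIs) and 3.96 CPM in no HCC (14 UMIs). Their CreLox to no HCC ratio was 3.84 (2.15 to 7.36), their HepABC to no HCC ratio 0.411 (0.230 to 0.790) and their HepABC to CreLox ratio 0.107 (0.0763 to 0.150). So the helicase genes and the clamp stood in the same order over the 3 libraries, but these are not independent results. In no HCC, 1 deep cell held 14 of the 36 S-phase UMIs, with 5 of the 16 UMIs of pcna and UMIs of mcm2 to mcm6. Without the top cell of each library the HepABC to no HCC ratio of the S-phase sum was 0.767. The pcna and helicase ratios were not computed without it.

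Within the helicase, 5 of the 6 subunits lay between 2.44 and 3.45 CPM in CreLox deep cells. mcm5 had 0.345, 3.45 and 1.42 CPM in HepABC, CreLox and no HCC (15, 17 and 5 UMIs). mcm4 had 0.276, 3.25 and 0.283 CPM (12, 16 and 1 UMIs), and mcm3 had 0.184, 3.05 and 0.283 CPM (8, 15 and 1 UMIs). These subunits belong to 1 hexamer, and CreLox was the highest library for each. mcm2 had 0.253, 2.44 and 0.849 CPM (11, 12 and 3 UMIs), and mcm6 had 0.322, 2.44 and 0.566 CPM (14, 12 and 2 UMIs). mcm7 had 0.253, 0.609 and 0.566 CPM (11, 3 and 2 UMIs), counts too low to separate CreLox from no HCC. The CreLox to no HCC ratios of mcm2 (2.87, 0.774 to 15.8), mcm5 (2.44, 0.864 to 8.45) and mcm6 (4.30, 0.958 to 39.6) also had intervals that include 1. Those of mcm3 (10.8, 1.66 to 453) and mcm4 (11.5, 1.78 to 481) excluded 1, on 1 no HCC UMI each. In CreLox, 1 cell held 5 of the 15 mcm3 and 7 of the 16 mcm4 UMIs, and the intervals do not cover such clustering.

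The nucleotide-supply genes gave few UMIs. rrm1, the large subunit of ribonucleotide reductase, had 0.551 CPM in HepABC (24 UMIs), 1.22 CPM in CreLox (6 UMIs) and 0.566 CPM in no HCC (2 UMIs). rrm2, the small subunit, whose level peaks in S phase in mammalian cells, had 0.184 CPM in HepABC (8 UMIs), 0 UMIs in CreLox, which allows up to 0.609 CPM, and 0.849 CPM in no HCC (3 UMIs). tyms had 6, 1 and 1 UMIs, or 0.138, 0.203 and 0.283 CPM. At these counts none of the 3 nucleotide genes differed detectably between CreLox and no HCC. In the plot of all listed members in deep cells, the CreLox points sit to the right of both other libraries for pcna and mcm2 to mcm6, with wide intervals for the no HCC library.

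**Figure D1:**
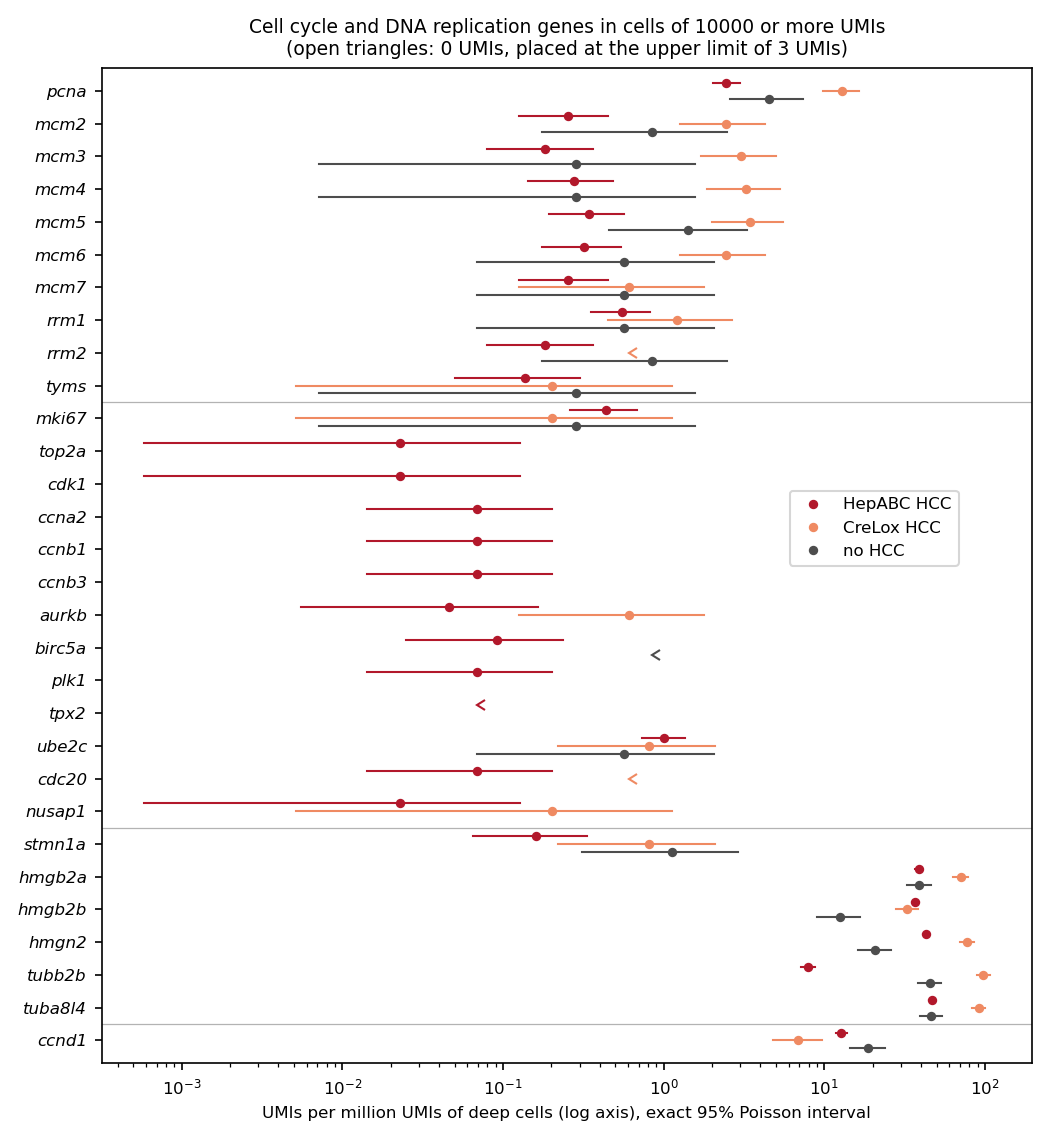
Level of each listed cell cycle and DNA replication gene in deep cells, in CPM on a log axis, with exact 95% Poisson intervals as bars. Points are the HepABC HCC, CreLox HCC and no HCC libraries, 1 each, and open triangles mark 0 UMIs placed at the limit of 3 UMIs. The CreLox point lies to the right for pcna (12.8 CPM, against 4.53 in no HCC) and tubb2b (97.9 against 45.3), and the HepABC point lies far left for tubb2b (7.92).

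The mitotic genes gave few UMIs in deep cells of every library. Together they had 2.00 CPM in HepABC (1.60 to 2.46, 87 UMIs), 1.83 CPM in CreLox (0.836 to 3.47, 9 UMIs) and 0.849 CPM in no HCC (0.175 to 2.48, 3 UMIs). Each sum covers the mitotic genes listed in that library (13, 5 and 3), with unlisted genes counted as 0, so the sums compare unlike gene sets. The ratios were 2.35 (0.779 to 11.6) for HepABC to no HCC, 2.15 (0.537 to 12.4) for CreLox to no HCC and 1.09 (0.550 to 2.47) for HepABC to CreLox, so no difference was detectable at this depth. Over all cells of any depth the mitotic level was 2.75 CPM in HepABC (2.30 to 3.26), 3.75 in CreLox (2.60 to 5.24) and 4.81 in no HCC (3.14 to 7.05). These intervals overlap, and 17 of the 26 no HCC UMIs lay in 1 cell. ube2c gave the most of the HepABC count, with 44 of the 87 UMIs in 14 cells (1.01 CPM), against 4 UMIs in CreLox (0.812 CPM) and 2 UMIs in no HCC (0.566 CPM). mki67 had 19 UMIs in HepABC (0.436 CPM), 1 in CreLox (0.203 CPM) and 1 in no HCC (0.283 CPM), and its HepABC to CreLox ratio was 2.15 with an interval of 0.342 to 89.3. birc5a, survivin of the chromosomal passenger complex, had 4 UMIs in HepABC and 0 in no HCC, and aurkb, the kinase of that complex, had 2 UMIs in HepABC and 3 in CreLox. The other mitotic genes had 0 to 3 UMIs in HepABC deep cells.

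The chromatin and tubulin genes gave many more UMIs than the replication and mitotic genes, and 1 or more of them was seen in 75.3% of HepABC, 92.5% of CreLox and 74.2% of no HCC deep cells after thinning to 10000 UMIs, so their level is not a count of cycling cells. Their sum was 174 CPM in HepABC, 372 CPM in CreLox and 165 CPM in no HCC, with ratios of 2.25 (2.05 to 2.48) for CreLox to no HCC, 0.467 (0.444 to 0.492) for HepABC to CreLox and 1.05 (0.967 to 1.15) for HepABC to no HCC, the last of which turned to 0.835 with TMM scaling and to 0.905 on a total without mitochondrial genes and the 20 genes of the highest counts. With TMM scaling the CreLox to no HCC ratio was 1.59. In shallow cells it was 0.665 (0.630 to 0.702), so the CreLox excess over no HCC was not seen there. The sum hides different gene patterns.

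tubb2b, a β-tubulin, had the widest spread of these 6 genes over the 3 libraries. It had 7.92 CPM in HepABC (345 UMIs), 97.9 CPM in CreLox (482 UMIs) and 45.3 CPM in no HCC (160 UMIs). The HepABC to CreLox ratio was 0.0809 (0.0703 to 0.0931), the HepABC to no HCC ratio 0.175 (0.145 to 0.212) and the CreLox to no HCC ratio 2.16 (1.80 to 2.60). A tubb2b UMI was seen in 15.2%, 82.8% and 49.3% of HepABC, CreLox and no HCC deep cells, and in 7.33%, 57.5% and 34.7% once each cell was thinned to 10000 UMIs. The α-tubulin tuba8l4 did not share its low HepABC level against no HCC: it had 47.1 CPM in HepABC (2052 UMIs), 91.8 CPM in CreLox (452 UMIs) and 46.4 CPM in no HCC (164 UMIs). Its CreLox to no HCC ratio, 1.98 (1.65 to 2.38), was close to that of tubb2b. The log2 HepABC to no HCC ratio of tuba8l4 was 0.02, and -0.31 with TMM scaling, a scaling that uses a trimmed mean over genes instead of the total.

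The high-mobility-group genes, whose proteins bend DNA or bind nucleosomes, were higher in one or both HCC libraries than in no HCC. hmgn2 had 43.0 CPM in HepABC (1873 UMIs), 77.8 CPM in CreLox (383 UMIs) and 20.7 CPM in no HCC (73 UMIs), with ratios to no HCC of 2.08 (1.65 to 2.67) and 3.76 (2.92 to 4.90). hmgb2b had 36.9 CPM in HepABC (1606 UMIs), 32.9 CPM in CreLox (162 UMIs) and 12.5 CPM in no HCC (44 UMIs), with ratios to no HCC of 2.96 (2.2 to 4.09) and 2.64 (1.88 to 3.77). Its paralog hmgb2a had 38.63, 70.47 and 39.08 CPM (1682, 347 and 138 UMIs), with ratios to no HCC of 0.989 (0.831 to 1.18) in HepABC, whose direction depended on which deep cells were kept, and 1.80 (1.48 to 2.21) in CreLox. hmgb2a and hmgb2b belong to 1 gene family, as do the tubulin genes. How far their sequences overlap was not compared here, and reads that fit several family members may have been dropped in counting, so their separate values are uncertain. stmn1a, stathmin, a protein that destabilizes microtubules, had 7, 4 and 4 UMIs (0.161, 0.812 and 1.13 CPM), in 4, 2 and 2 cells.

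ccnd1, cyclin D1, drives cells out of G1 and is a β-catenin target in human cells. It was lower in both HCC libraries than in no HCC, with 12.8 CPM in HepABC (11.8 to 13.9, 557 UMIs), 6.91 CPM in CreLox (4.78 to 9.65, 34 UMIs) and 18.7 CPM in no HCC (14.5 to 23.8, 66 UMIs). Its ratio to no HCC was 0.685 (0.530 to 0.897) in HepABC and 0.369 (0.237 to 0.567) in CreLox. The HepABC to CreLox ratio was 1.85 (1.31 to 2.70) in deep cells and 0.787 over all cells of the libraries. ccnd1 thus had the reverse order of the S-phase genes between CreLox and no HCC.

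Against all genes, the members were set by a fold of 2 or more in CPM among genes listed in both libraries with 10 or more UMIs over both. The median log2 ratio of all such genes was 0.39 for HepABC to no HCC, 0.57 for CreLox to no HCC and -0.10 for HepABC to CreLox, so a ratio is best read against that shift. For CreLox to no HCC, 12 members could be compared and 9 were higher, against 29% of all 8027 genes. They were pcna, mcm2, mcm3, mcm4, mcm5, mcm6, hmgb2b, hmgn2 and tubb2b, and included 6 of the 6 S-phase genes compared, whose median log2 ratio was 1.81. However, mcm2 to mcm6 passed the minimum of 10 UMIs through their CreLox counts, with 1 to 5 UMIs each in no HCC. The minimum left out mcm7, rrm1, rrm2 and tyms, with ratios of 1.08, 2.15, at most 0.717 and 0.717. The 6 of 6 and the median of 1.81 are thus partly set by that minimum. With TMM scaling 5 of the 9 stayed past 2-fold (mcm2, mcm3, mcm4, mcm6 and hmgn2), against 15.7% of all genes, and 6 of the 9 had a counting interval that excluded 1. The gene past 2-fold on the lower side was ccnd1, against 3.44% of all genes.

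For HepABC to no HCC, 17 members could be compared. hmgb2b and hmgn2 were higher, against 28.1% of all 10235 genes, of which hmgb2b stayed so with TMM scaling, and 6 were lower (mcm2, mcm5, mcm7, rrm2, stmn1a and tubb2b), against 9.68% of all genes. Of those 6, mcm5, stmn1a and tubb2b had a counting interval that excluded 1. The stmn1a call rests on 7 HepABC and 4 no HCC UMIs, of which 3 lay in 1 HepABC cell and 3 in 1 no HCC cell. Its interval does not cover such clustering. The median log2 ratio of the S-phase genes was -1.02. For HepABC to CreLox, 17 members could be compared and 10 were lower (pcna, mcm2 to mcm7, rrm1, stmn1a and tubb2b), against 17.7% of all 10780 genes. All 8 S-phase genes compared were among them, with a median log2 ratio of -3.10. Of these, mcm7 (0.415, 0.110 to 2.31) and rrm1 (0.452, 0.180 to 1.35) had intervals that include 1. The minimum of 10 UMIs left out tyms (0.679, 0.0823 to 31.2) and rrm2, which had 8 UMIs in HepABC and 0 in CreLox. mki67 was past 2-fold on the higher side, against 11.7% of all genes, on 19 UMIs against 1 and with an interval that spans 1. The 3 comparisons share libraries and do not stand as separate evidence.

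A cell in S phase should hold RNA of several S-phase genes at once, so genes were also counted per cell. In deep cells thinned to 10000 UMIs each, 1 or more S-phase genes were seen in 3.92% of HepABC cells (76), 12.9% of CreLox cells (24) and 4.69% of no HCC cells (10), and without thinning in 8.77%, 24.7% and 9.86%. Of the thinned cells, 6 in HepABC (0.310%, 0.114 to 0.673), 4 in CreLox (2.15%, 0.589 to 5.41) and 1 in no HCC (0.469%, 0.0119 to 2.59) held 2 or more S-phase genes. Without thinning these cells numbered 15 (0.774%), 13 (6.99%) and 2 (0.939%). The CreLox interval overlaps that of no HCC, and without the 5% of cells with the most UMIs in each library the CreLox share was 1.25%, on 1 cell of 80. Mitotic genes were rarer still. After thinning, 2 HepABC cells held 2 or more of them (0.103%), and 0 of 186 CreLox cells and 0 of 213 no HCC cells did, which allows shares of up to 1.61% and 1.41%. Mitotic genes were scored on 13 listed genes in HepABC, 5 in CreLox and 3 in no HCC. These shares and limits are therefore not like for like.

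**Figure D2:**
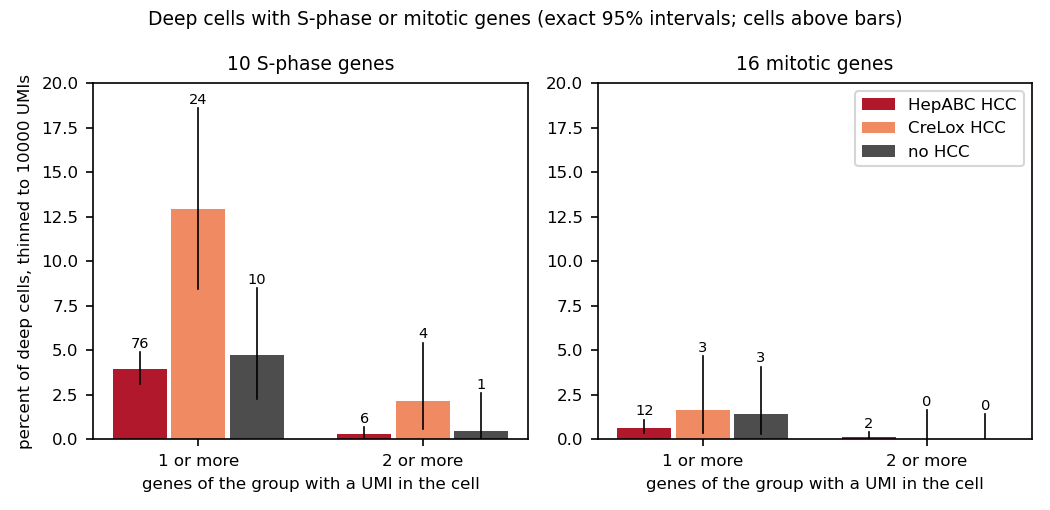
Percent of deep cells with 1 or more and with 2 or more S-phase genes (left) or mitotic genes (right) after each cell was thinned to 10000 UMIs, with the number of cells above each bar. Mitotic genes were scored on 13, 5 and 3 listed genes in HepABC, CreLox and no HCC. Bars are HepABC HCC, CreLox HCC and no HCC and thin lines exact 95% binomial intervals, or the limit of 3 cells where the count is 0; the CreLox share with an S-phase gene is 12.9%, against 3.92% in HepABC and 4.69% in no HCC.

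Most S-phase UMIs of the CreLox deep cells lay in a few cells. The 13 CreLox cells with 2 or more S-phase genes held 110 of the 145 S-phase UMIs (75.9%), with 33 in the top cell. The 15 such HepABC cells held 55 of 216 (25.5%), with 7 in the top cell, and the 2 no HCC cells 16 of 36 (44.4%), with 14 in 1 cell. With all cells of 2 or more S-phase or mitotic genes left out, an alternative chosen with the data known, the S-phase level was 3.70 CPM in HepABC, 7.85 in CreLox and 5.72 in no HCC, and the CreLox to no HCC ratio was 1.37. Without the top cell of each library that ratio was 3.67, and the HepABC to no HCC ratio was 0.767. The cells with 2 or more genes were picked by the same genes whose UMIs were summed. Part of the 75.9% share and of the fall to 1.37 therefore follows from that choice.

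These CreLox cells had hepatocyte marker levels like those of their neighbors. Deep cells with 2 or more S-phase genes had a median 17.7% of hepatocyte marker UMIs in HepABC (other deep cells 17.9%), 21.2% in CreLox (18.4%) and 27.3% in no HCC (27.6%), and 12 of the 13 CreLox cells had 5% or more. They were deeper than the other deep cells, at a median 30225 UMIs against 20753 in HepABC, 36629 against 24305 in CreLox and 18689 against 16848 in no HCC. Part of that depth follows from the choice, since the cells were picked without thinning and a deeper cell more easily shows 2 genes. Whether some are doublets, which hold RNA of more than 1 cell, was not tested. In the CreLox library, 2 cells had 8 of the 10 S-phase genes and 0 mitotic genes. They held 27445 and 49968 UMIs, of which 19.1% and 21.8% were of hepatocyte markers, with 12 and 14 UMIs of pcna and 0 UMIs of the macrophage, lymphocyte and endothelial markers. In no HCC, 1 deep cell of 17325 UMIs and 26.9% hepatocyte markers likewise had 8 S-phase and 0 mitotic genes. The HepABC deep cell with the most S-phase genes had 6, in 29514 UMIs.

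Replication genes that were not used to pick these cells were also higher in them. A list of 43 other replication genes (such as replication factor C, RPA and polymerase subunits) was 3.39 times as high (2.61 to 4.34) in deep cells with 2 or more S-phase genes as in other deep cells in HepABC, 5.04 times (3.98 to 6.36) in CreLox and 17.2 times (10.1 to 27.8, 2 cells) in no HCC. A list of 41 other mitotic genes was 0.888 times (0.241 to 2.29) as high in HepABC, 1.51 times in CreLox and 9.35 times (1.06 to 38.5) in the 2 no HCC cells, and a list of 25 G1 and arrest genes was 1.13, 0.975 and 0.858 times as high in the 3 libraries. Of the abundant chromatin and tubulin members, hmgb2a was 1.08 times (0.649 to 1.69) and 1.39 times as high in the HepABC and CreLox cells, against 6.52 times in the 2 no HCC cells. hmgn2 was 1.54 times as high (1.04 to 2.2) in HepABC, 1.24 times in CreLox and 9.91 times in no HCC, and tuba8l4 was 2.07 times (1.5 to 2.79), 1.06 times (0.758 to 1.44) and 2.94 times as high.

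Deep cells with 2 or more mitotic genes were read in the same way. In HepABC, 5 deep cells held 2 or more mitotic genes, and they gave 45 of the 87 mitotic UMIs (51.7%), 23 of them in 1 cell. Part of that share follows from picking the cells by these genes. None of the HepABC deep cells held 2 or more genes of both kinds. With 15 S-phase and 5 mitotic cells among 1938, a shared cell could easily be missed, so separate sets are not shown. In CreLox and no HCC, 0 deep cells held 2 or more mitotic genes, so no overlap was possible there. Among cells of any depth, 3 HepABC and 1 no HCC cells held both. In the 5 HepABC deep cells hmgn2 was 43.2 times as high (37.2 to 49.98) as in other deep cells, hmgb2b 25.3 times (20.7 to 30.8) and hmgb2a 22.9 times (18.6 to 28.0). tuba8l4 was 2.07 times as high (1.07 to 3.62), and tubb2b, on 1 UMI, 1.02 times (0.0258 to 5.73). The 41 other mitotic genes were 28.3 times as high (19.1 to 40.6), the other replication genes 2.79 times (1.56 to 4.62) and the G1 and arrest genes 1.06 times. A single cell weighed heavily here, with 15327 UMIs, 17.7% of them of hepatocyte markers and 0 of macrophage markers, 8 mitotic and 0 S-phase genes, 12 UMIs of ube2c, 99 of hmgn2 and 43 of hmgb2a. The hmgb2 and hmgn2 ratios of the 5 HepABC mitotic cells thus lay far above those of the HepABC and CreLox S-phase cells.

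**Figure D3:**
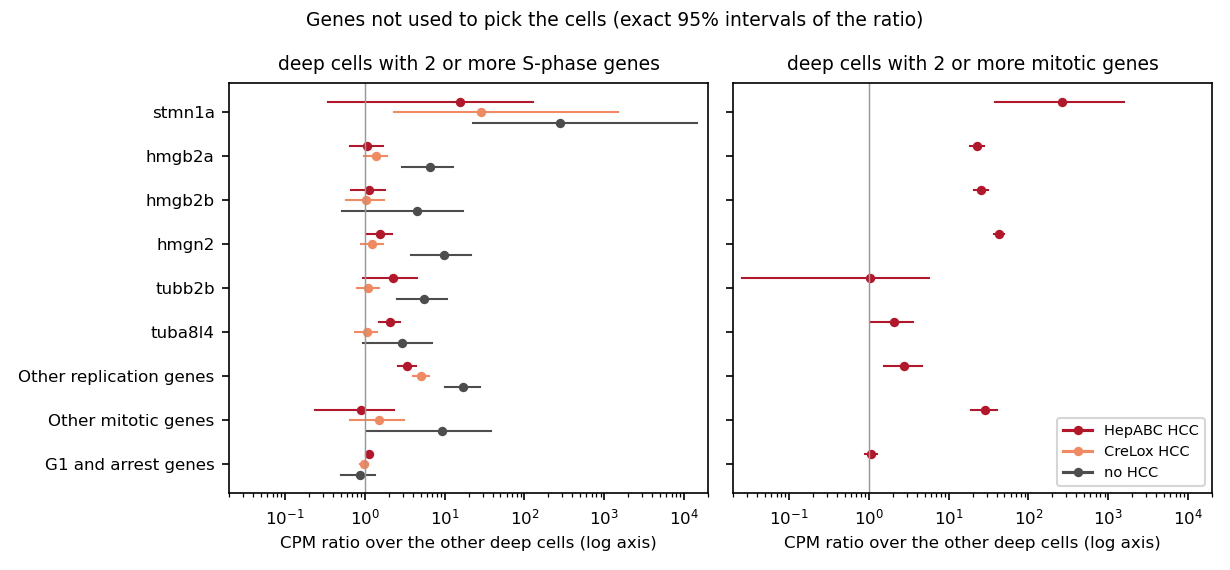
Level of genes not used to pick the cells, as the ratio of their CPM in picked deep cells to that in the other deep cells of the same library (log axis, exact 95% intervals as bars). Cells with 2 or more S-phase genes are on the left (15 HepABC HCC, 13 CreLox HCC and 2 no HCC cells) and the 5 HepABC cells with 2 or more mitotic genes on the right, where hmgn2 reaches 43.2 and tubb2b is at 1.02.

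Over all cells of each library, of any depth, 27 HepABC, 65 CreLox and 14 no HCC cells held 2 or more S-phase genes, 9, 2 and 2 cells held 2 or more mitotic genes, and 3, 0 and 1 cells held both. A mitotic gene was seen in 5 of the 27 HepABC S-phase cells (18.5%, 6.30 to 38.1), 3 of the 65 CreLox ones (4.62%, 0.962 to 12.9) and 1 of the 14 no HCC ones (7.14%, 0.181 to 33.9). In the other cells of the libraries the share was 1.44%, 1.07% and 0.659%. The CreLox library thus held the most cells with 2 or more S-phase genes. Mitotic genes were scored on 13 listed genes in HepABC, 5 in CreLox and 3 in no HCC. The mitotic counts and shares thus compare unlike gene sets, and the intervals of the 3 shares of S-phase cells with a mitotic gene overlap.

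**Figure D4:**
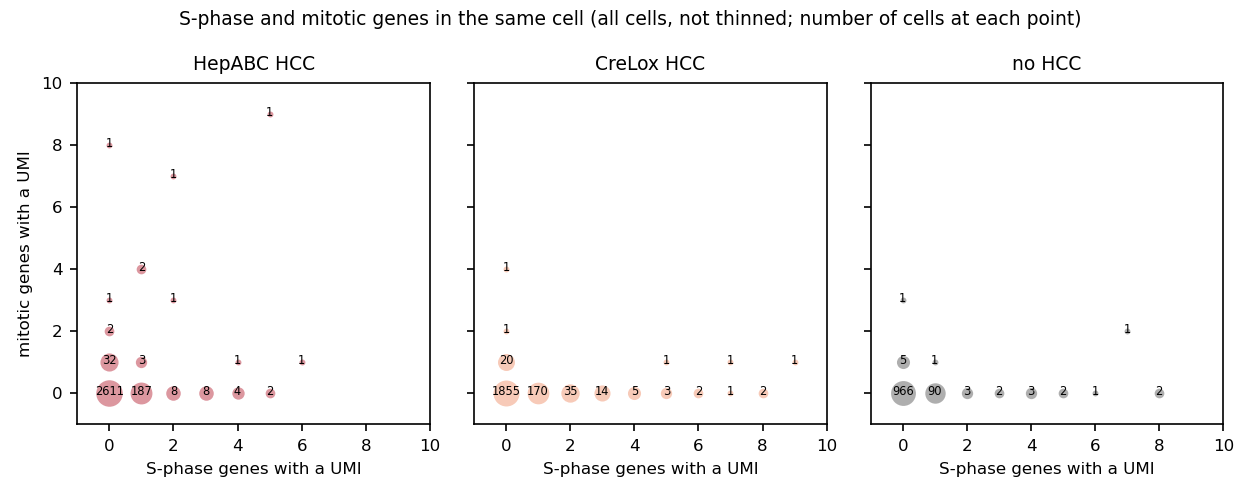
Number of S-phase genes (x axis) and of mitotic genes (y axis) seen in each cell of any depth, with the number of cells at each pair of values, in HepABC HCC, CreLox HCC and no HCC. CreLox cells run along the S-phase axis to 9 genes, whereas HepABC holds 1 cell with 5 S-phase and 9 mitotic genes. Of the mitotic genes, 13, 5 and 3 were listed in HepABC, CreLox and no HCC.

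Most of the cells with many members outside the hepatocyte profile carried leukocyte or endothelial markers. In HepABC, a cell of 8508 UMIs with 161 UMIs of macrophage markers and 1.1% hepatocyte markers held 5 S-phase and 9 mitotic genes, among them 14 UMIs of pcna, 13 of rrm2 and 8 of rrm1. A HepABC cell of 4467 UMIs with 104 UMIs of macrophage markers held 2 S-phase and 7 mitotic genes. In CreLox, a cell of 5763 UMIs held 9 of the 10 S-phase genes and 1 mitotic gene, with 39 UMIs of lymphocyte, 19 of pan-leukocyte and 17 of macrophage markers. A CreLox cell of 2902 UMIs and 1.72% hepatocyte markers held 7 S-phase genes but 0 UMIs of macrophage, lymphocyte and pan-leukocyte markers, 3 of endothelial and 6 of cholangiocyte markers, so its type was not given by these lists. In no HCC, a cell of 5081 UMIs with 15 UMIs of endothelial markers held 8 S-phase genes, and a cell of 4911 UMIs with 288 UMIs of macrophage markers held 6. The no HCC cell with the most mitotic genes, 3, had 6063 UMIs and 125 UMIs of the lymphocyte chemokine ccl38.6, with 291 UMIs of hmgn2 and 72 of hmgb2a. Leukocyte, endothelial and hepatocyte profiles were thus all found among cells with several cell cycle genes.

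In shallow cells the S-phase level was higher than in deep cells in every library. It was 53.0 CPM in HepABC, 80.1 CPM in CreLox and 92.8 CPM in no HCC, with a CreLox to no HCC ratio of 0.863 (0.696 to 1.08). These levels lay within the interval of the hemoglobin-rich no HCC cells described below (9.12 to 272 CPM). The part of stray RNA in them was not tested. The mitotic level was 22.9 CPM in HepABC (29 UMIs), 6.47 CPM in CreLox (21 UMIs) and 2.90 CPM in no HCC (4 UMIs). The HepABC to no HCC ratio was 7.91 (2.78 to 31.0), and 20 of the 29 HepABC UMIs lay in 3 cells. This ratio sets 13 listed mitotic genes in HepABC against 3 in no HCC, with unlisted genes counted as 0. It is therefore not read as a HepABC excess. ccnd1 had 20.6, 28.7 and 87.7 CPM. Since shallow cells mix cell types in unlike shares, they were split by whether they held a UMI of c1qb (a macrophage complement gene), ccl38.6 (a lymphocyte chemokine), tmem88a (an endothelial gene), several of these, or none. The macrophage markers took 4.00%, 3.38% and 5.31% of UMIs in c1qb cells, the lymphocyte markers 0.812%, 1.47% and 1.03% in ccl38.6 cells and the endothelial markers 0.410%, 0.336% and 0.310% in tmem88a cells of HepABC, CreLox and no HCC.

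Cells rich in hemoglobin RNA, taken as cells that should lack S-phase RNA, gave the level of stray RNA only roughly. In no HCC, 2 of 13 of them had an S-phase UMI (15.4%, 1.92 to 45.4, median 1426 UMIs) and 0 of 13 had 2 or more S-phase genes, which allows up to 23.1%, and their S-phase level was 75.3 CPM (9.12 to 272, 2 UMIs). CreLox held 2 such cells, 1 with an S-phase UMI, and HepABC none. Shares and levels of shallow cells at or below these are given as values and are not read as expression.

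Endothelial-marked cells had their highest S-phase level in no HCC. With 1 or more S-phase genes were 8.33% of 24 HepABC, 16.7% of 54 CreLox and 25.5% of 55 no HCC tmem88a cells (14.7 to 39.0 in no HCC), and after thinning to 1000 UMIs 4.76%, 7.69% and 13.5%. The S-phase level of the tmem88a cells was 63.7 CPM in HepABC (3 UMIs), 73.3 CPM in CreLox (9 UMIs) and 227 CPM in no HCC (160 to 314, 37 UMIs). The CreLox to no HCC ratio was 0.322 (0.137 to 0.680) and the HepABC to no HCC ratio 0.280 (0.0552 to 0.884). All 3 levels lay within the interval of hemoglobin-rich no HCC cells (9.12 to 272 CPM), and those of HepABC and CreLox also lay below the value there, 75.3 CPM. These ratios are therefore not read as a difference in expression. ccnd1 ran the same way in tmem88a cells, at 42.4 CPM in HepABC (2 UMIs), 138 CPM in CreLox (17 UMIs) and 295 CPM in no HCC (48 UMIs), and was seen in 8.33%, 25.9% and 47.3% of them. The endothelial-marked class was thus the one with the highest levels of both S-phase genes and ccnd1 in no HCC.

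In macrophage-marked cells the S-phase level was 64.0 CPM in HepABC, 59.0 CPM in CreLox and 123 CPM in no HCC. The share with 1 or more S-phase genes was 10.6% of 188 HepABC, 5.96% of 151 CreLox and 9.82% of 112 no HCC cells, and 5.75%, 3.39% and 7.14% after thinning. The mitotic level was 44.2 CPM in HepABC, but its 20 UMIs lay in 3 of the 188 cells. CreLox and no HCC had 0 mitotic UMIs in this class, over the 5 and 3 mitotic genes listed there against 13 in HepABC. In lymphocyte-marked cells the S-phase level was 55.4 CPM in HepABC (6 UMIs), 116 CPM in CreLox (46 UMIs) and 106 CPM in no HCC (31 UMIs). The share with an S-phase gene was 1.32% of 76 HepABC, 16.3% of 227 CreLox (11.7 to 21.8) and 10.7% of 206 no HCC cells, and 1.72%, 11.5% and 8.29% after thinning. The CreLox to no HCC ratio of the level was 1.1 (0.683 to 1.79), so no difference was detectable between those libraries.

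Cells with none of the 3 marker genes and 5% or more of hepatocyte marker UMIs, a subset chosen with the data known, share no cell with the deep ones. Hepatocyte markers took 15.0%, 15.8% and 19.7% of their UMIs in HepABC, CreLox and no HCC. In ccl38.6 cells they still took 8.06%, 5.24% and 9.18%, so 5% does not single out hepatocytes at low depth. In the subset, macrophage markers took 0.0185% of UMIs in CreLox and 0.249% in no HCC, and erythrocyte markers 0.0211% and 1.22%. Whether the ratios below compare unlike cell mixes was not tested. They numbered 196 in HepABC, 1248 in CreLox and 348 in no HCC, and their S-phase level was 14.7 CPM (6.35 to 29.0, 8 UMIs), 72.5 CPM (61.7 to 84.7, 159 UMIs) and 26.0 CPM (13.8 to 44.4, 13 UMIs). The CreLox to no HCC ratio was 2.79 (1.59 to 5.36), the HepABC to no HCC ratio 0.567 (0.204 to 1.47) and the HepABC to CreLox ratio 0.203 (0.0861 to 0.410). For the S-phase genes the 3 levels ran in the order of the deep cells. By the rule given above for hemoglobin-rich cells they are not read as expression, and their order is not read as a repeat. The chromatin and tubulin genes did not repeat their CreLox excess over no HCC here, with a ratio of 0.970 (0.866 to 1.09). 2 or more S-phase genes were held by 1 HepABC, 27 CreLox and 0 no HCC cells of this kind. Of these cells 1.53%, 7.77% and 3.74% had an S-phase gene, and 1.12%, 5.27% and 4.22% after thinning, all below the share in hemoglobin-rich no HCC cells, as the 3 levels were below the level there. That level rests on 2 UMIs in 13 cells of no HCC (9.12 to 272 CPM), too few to set a firm limit for the 3 libraries, here or in tmem88a cells. The part of stray RNA was not tested.

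**Figure D5:**
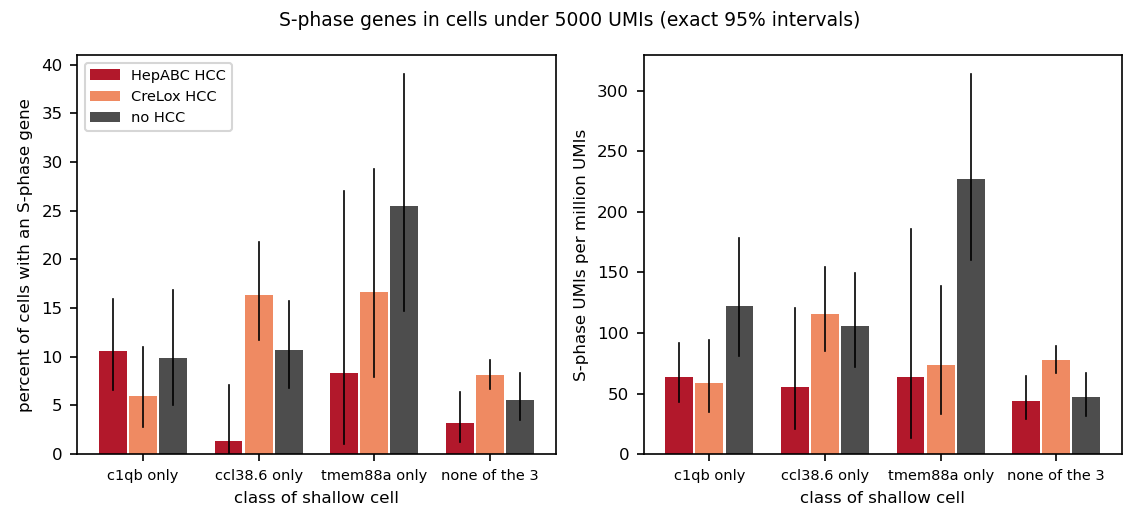
Shallow cells (under 5000 UMIs) split by marker gene, with the percent of cells that held 1 or more of the 10 S-phase genes on the left and their summed level in CPM on the right, both not thinned. Bars are HepABC HCC, CreLox HCC and no HCC and thin lines exact 95% intervals; on the right, no HCC is highest among tmem88a cells (227 CPM) and CreLox among cells with none of the 3 marker genes (77.5 CPM, against 43.7 in HepABC and 47.0 in no HCC).

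Other genes of the same processes were read from lists of named genes. Of the 43 other replication genes, 12 could be compared between CreLox and no HCC deep cells, with 6 higher by 2-fold or more (29% of all genes), 0 lower (3.44% of all genes) and a median log2 ratio of 1.02, against 0.57 over all genes. Between HepABC and CreLox 2 of 29 were higher (11.7% of all genes) and 10 lower (17.7% of all genes), with a median of -0.66 against -0.10 over all genes. Between HepABC and no HCC 5 of 25 were higher, a smaller share than the 28.1% of all genes, and 3 lower (9.68% of all genes), with a median of -0.12 against 0.39 over all genes. rfc3, a clamp loader subunit, had 6.57 CPM in HepABC, 8.94 CPM in CreLox and 3.4 CPM in no HCC. dhfr, which feeds thymidylate synthesis, had 4.00, 12.2 and 9.06 CPM. The subunits of the single-strand binding protein RPA had 3.88, 5.08 and 2.27 CPM (rpa2) and 2.50, 5.89 and 3.96 CPM (rpa3). CreLox had the highest value for each of these genes, and the order of HepABC and no HCC varied. The CreLox to no HCC ratio of rfc3 was 2.63 (1.37 to 5.47). Those of rpa2 (2.24, 0.980 to 5.75), rpa3 (1.49, 0.760 to 3.04) and dhfr (1.34, 0.862 to 2.13) had intervals that include 1.

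Few of the 41 other mitotic genes could be compared: 7, 1 and 7 for HepABC to no HCC, CreLox to no HCC and HepABC to CreLox. Past 2-fold, 1 was higher in HepABC than in no HCC (mad2l1, against 28.1% of all genes) and 2 lower in HepABC than in CreLox (kif22 and cdc25b, against 17.7% of all genes), on lists too short to read against those shares. bub3, of the spindle checkpoint, had 4.80 CPM in HepABC, 7.11 CPM in CreLox and 3.96 CPM in no HCC, and mad2l1, of the same checkpoint, had 1.95, 1.42 and 0.566 CPM, the last on 2 UMIs. The nuclear importer kpna2 had 0.413 and 0.406 CPM and the Cdk1-activating phosphatase cdc25b 0.230 and 1.02 CPM in HepABC and CreLox. Both had 0 UMIs in no HCC, which allows up to 0.849 CPM.

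Genes of the G1 phase and of arrest, many of which hold cells back from division, gave high counts in every library. Of the 25 G1 and arrest genes, 6 of 16 were higher in HepABC than in no HCC (28.1% of all genes) and 2 lower (9.68%), with a median log2 ratio of 0.63 against 0.39 over all genes. Between CreLox and no HCC 5 of 11 were higher (29% of all genes) and 0 lower (3.44%), with a median of 0.96 against 0.57, and between HepABC and CreLox 2 of 16 were higher (11.7%) and 2 lower (17.7%), with a median of 0.20 against -0.10. With so few genes compared, these shares are not read as a change of the list. gadd45ba, a growth-arrest and DNA-damage gene, had 358 CPM in HepABC, 221 CPM in CreLox and 106 CPM in no HCC. Its ratios to no HCC were 3.39 (3.06 to 3.76) and 2.09 (1.86 to 2.36). The antiproliferative gene btg1 had 259, 201 and 158 CPM, and its relative btg2 had 71.3, 114 and 49.0 CPM. ccng1, a p53 target in mammals, had 290, 292 and 212 CPM. cdkn1a, the p21 inhibitor of cyclin-dependent kinases, and mdm2, which restrains p53, were the genes of this list past 2-fold in HepABC over both other libraries. The G1 cyclin ccnd2a was past 2-fold higher in both HCC libraries than in no HCC, as were gadd45aa and gadd45ba.

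Of 21 other chromatin and tubulin genes, 10 of 16 were higher in CreLox than in no HCC by 2-fold or more (29% of all genes) and 0 lower (3.44%), with a median log2 ratio of 1.06 against 0.57 over all genes. Between HepABC and no HCC 2 of 17 were higher, a smaller share than the 28.1% of all genes, and 1 lower (9.68%), with a median of 0.38 against 0.39. Between HepABC and CreLox 1 of 17 was higher (11.7%) and 6 lower (17.7%), with a median of -0.47 against -0.10. The prothymosin genes ptmaa and ptmab, of small acidic nuclear proteins, had 386, 738 and 354 CPM and 84.9, 216 and 80.7 CPM in HepABC, CreLox and no HCC. ran, the GTPase of nuclear transport, had 326, 329 and 201 CPM, and the β-tubulin tubb4b had 271, 351 and 141 CPM. tubb4b did not share the low HepABC level of tubb2b.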

How the data were processed

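Single-cell RNA was measured with the 10x 3′ v2 assay in 3 dissociated livers, 1 library each. The deposited matrices hold UMI counts per gene and cell, which the authors made with Cell Ranger 2.2.0 on genome GRCz11 and filtered for empty droplets and outlier cells. No normalization was applied to them.

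Here counts were summed by library and depth. CPM values carry 95% intervals from the exact Poisson limits of their UMIs, shares carry exact binomial (Clopper-Pearson) 95% intervals, and ratios carry exact intervals for a pair of Poisson counts. All cover counting error only. A count of 0 was given an upper limit of 3 counts. Thinning drew UMIs without replacement with a fixed seed, to 10000 per deep cell and 1000 per shallow cell, and left out shallower cells. No doublet caller was run; an alternative left out the 5% deepest cells. Python 3.11.15, numpy 2.4.6, scipy 1.17.1 and edgeR 4.0.16 (TMM factors only) were used, and the code was tested on simulated counts.

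The genes, roles and lists were chosen with earlier results of these data known. A member was given values in each library where it had 10 or more UMIs over the deep or the shallow cells. The 4 genes with the most UMIs were named per pathway list, with only some of the genes past 2-fold. Single cells were described where they held the most S-phase or mitotic genes. Alternatives covered thinning, depth minimum, scaling, fold, class rule and left-out cells. Sequences were not used here.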

Additional observations from a re-analysis of the deposited data

How the results depend on the processing

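No paired analysis was possible because each group has 1 library and no test was made. Depth limits the mitotic and nucleotide genes most, since a few UMIs in a few cells set their values, and 1 fish per group leaves the spread between fish unknown. The share of deep cells with 2 or more S-phase genes was 0.774% in HepABC and 6.99% in CreLox without thinning, 6.35% in CreLox with a minimum of 20000 UMIs, 0.0516% in HepABC with 3 or more genes needed, and 0% in HepABC and no HCC with 2 UMIs per gene needed. The other 48 values of this kind moved by less than their counting interval.

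In HepABC, CreLox and no HCC, a total without mitochondrial genes and the 20 genes of the highest counts gave S-phase levels of 7.77, 44.7 and 18.6 CPM, chromatin and tubulin levels of 272, 564 and 300.9 CPM, ccnd1 levels of 20.05, 10.5 and 34.1 CPM, and a HepABC mitotic level of 3.13 CPM. All cells of any depth gave 7.24, 55.7 and 41.6 CPM (S-phase), 2.75, 3.75 and 4.81 CPM (mitotic), 202, 644 and 675 CPM (chromatin and tubulin) and, for ccnd1, 16.4 CPM in CreLox and 42.2 CPM in no HCC. The mean of thinned cells gave 1.55 CPM (mitotic, HepABC), 412 CPM (chromatin and tubulin, CreLox) and 6.10 CPM (S-phase, no HCC). TMM scaling gave chromatin and tubulin levels of 167, 318 and 200.4 CPM. Without the top cell the levels were 1.47 CPM (mitotic, HepABC), 169.6 CPM (chromatin and tubulin, HepABC), 23.0 CPM (S-phase, CreLox) and 6.26 CPM (S-phase, no HCC). Without cells of 2 or more S-phase or mitotic genes they were 3.70, 7.85 and 5.72 CPM (S-phase), and in HepABC 0.931 CPM (mitotic) and 163 CPM (chromatin and tubulin). The order of CreLox over no HCC over HepABC for the S-phase genes was the same in these alternatives and with TMM scaling.

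Of members higher in HepABC than in no HCC there were 4 at 1.5-fold (42.9% of all genes) and 1 with TMM scaling (18.9%), and 3 were lower with an interval that excluded 1 (7.29%). TMM left 5 higher in CreLox than in no HCC (15.7%). Higher in HepABC than in CreLox were 2 at 1.5-fold (21.2%), 2 with TMM (15%) and 0 with an interval that excluded 1 (7.76%), against 1 at 2-fold.

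Among shallow cells, shares with 2 or more genes came from so few cells that several were 0% under an alternative. Thinning to 1000 UMIs gave 0% for S-phase genes in HepABC c1qb and tmem88a cells and in no HCC c1qb cells and cells with no marker, and for mitotic genes in HepABC cells with no marker. Needing 2 UMIs per gene gave 0% for S-phase genes in HepABC ccl38.6 and tmem88a cells, CreLox c1qb and ccl38.6 cells and no HCC ccl38.6 cells, 0.150% in CreLox cells with no marker, and 0% for mitotic genes in HepABC and CreLox cells with no marker. Needing 2 UMIs of the class gene gave 0% for S-phase genes in HepABC ccl38.6 cells. The other 82 such values did not move past their intervals.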
